A study of Mus musculus with 6 samples.

Results

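The cytokines and feedback regulators of NF-κB signalling were examined in LYVE-1+ TAMs, the perivascular macrophages (PvTAMs) of mouse mammary tumors, after inhibition of heme oxygenase-1 (HO-1). The set held 10 genes of the 21841 in the count table, chosen by name as inflammatory cytokines and NF-κB feedback genes without the chemokines: Il1b, Il1a, Il1rn, Tnf, Il6, Il10, Ptgs2, Nfkbia, Nfkbiz and Tnfaip3. All 10 were rows of the table. The macrophages came from breast tumors of the MMTV-PyMT line (FVB/N-Tg(MMTV-PyVT)634Mul/J, labelled WT), in which a mouse mammary tumor virus promoter drives the polyoma middle T oncogene in the mammary epithelium. Mice received vehicle (n = 3) or KCL-HO-1i (n = 3), a tin porphyrin inhibitor of HO-1 given i.p. at 25 µmol/kg/day, and tumors were collected at 36 h. Each library was made from 5000 CD206+LYVE1+ macrophages sorted from the enzyme-digested tumor of 1 mouse, and the age and sex of the mice were not given in the sources used here. The study sorted these cells to ask whether the inhibitor altered the phenotype of PvTAMs.

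NF-κB dimers are held in the cytoplasm by IκB proteins until signals from Toll-like, IL-1 or TNF receptors lead to the degradation of the IκB. The freed dimers then switch on cytokine genes together with genes that end the signal, so that the same stimulus raises both the response and its brake. In macrophages this covers the secreted proteins IL-1β, IL-1α, TNF and IL-6, the restraining cytokines IL-10 and IL-1 receptor antagonist, the prostaglandin synthase COX-2 encoded by Ptgs2, and the intracellular regulators IκBα (Nfkbia), IκBζ (Nfkbiz) and A20 (Tnfaip3).

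The stretch just upstream of the start site was read for the members, to show which of them carry a sequence that NF-κB could recognise. RefSeq promoter entries on GRCm38.p6 were matched for 8 of the 10 members, and Il10 and Nfkbiz are named only. The 250 bases before each start were searched on both strands for the 10-base NF-κB consensus. The 8 members had 11 such windows, with 3 for Il1rn and 2 for Tnfaip3. The consensus was present in 3 of these 11 windows, 1 each for Nfkbia, Tnfaip3 and Il6, and in 1281 of all 32851 windows of the same length (3.90%). The 3 windows with a match follow, 5′ to 3′ on the strand of the gene, with each match in capitals.
Nfkbia: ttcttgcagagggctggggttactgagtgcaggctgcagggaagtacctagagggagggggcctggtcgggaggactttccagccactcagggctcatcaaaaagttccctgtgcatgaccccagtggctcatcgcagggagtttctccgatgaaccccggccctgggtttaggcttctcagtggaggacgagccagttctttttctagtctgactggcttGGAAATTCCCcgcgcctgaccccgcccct
Tnfaip3: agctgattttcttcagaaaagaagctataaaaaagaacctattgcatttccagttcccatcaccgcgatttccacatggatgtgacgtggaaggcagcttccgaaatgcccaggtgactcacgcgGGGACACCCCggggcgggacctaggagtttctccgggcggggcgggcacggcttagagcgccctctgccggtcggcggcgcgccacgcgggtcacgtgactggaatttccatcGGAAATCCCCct
Il6: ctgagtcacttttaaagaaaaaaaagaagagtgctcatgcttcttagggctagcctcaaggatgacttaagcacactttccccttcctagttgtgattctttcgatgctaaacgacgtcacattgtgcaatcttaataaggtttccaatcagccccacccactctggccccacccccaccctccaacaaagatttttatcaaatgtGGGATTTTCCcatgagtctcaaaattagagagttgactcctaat
The Nfkbia window lies at chr12:55492648-55492897 on the minus strand, and its match begins 29 bases before the start and reads on the strand opposite to the gene. The Tnfaip3 window shown lies at chr10:19015411-19015660 on the minus strand, with a match 125 bases before the start on the strand of the gene and another 12 bases before it on the opposite strand. These distances are to the RefSeq start. In the GENCODE M21 annotation, used for gene locations here, Tnfaip3 spans chr10:19000910-19015657, so nearly all of this window lies inside the gene as located there. The other Tnfaip3 window, at chr10:19011964-19012213, held no match. The Il6 window lies at chr5:30012864-30013113 on the plus strand, with its match 44 bases before the start on the strand of the gene. A match is a description of the letters and not of binding, which was not measured.

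The libraries were shallow, with 206728 to 338255 counts with vehicle and 207812 to 535224 with KCL-HO-1i, so that most members rested on few counts. Mitochondrial genes took 1.17% to 3.77% of the counts with vehicle and 2.45% to 41.8% with KCL-HO-1i. The share of counts on macrophage genes also differed. A list of 15 general macrophage genes took 0.0358% to 0.133% of the counts with vehicle and 0.346% to 0.591% with KCL-HO-1i, and 16 PvTAM markers took 0.0396% to 0.153% against 0.563% to 1.08%. Not every gene of the first list followed its sum, since Cd68 had 8, 9 and 8 counts with vehicle against 0, 13.9 and 4. Of the genes for the sorting markers, Lyve1 had 22, 8 and 12.4 counts with vehicle against 8, 38 and 36 with KCL-HO-1i, and Adgre1, which encodes F4/80, had 3, 3 and 1 against 26, 44 and 72. Mrc1, which encodes CD206, had 12, 0 and 2.52 against 30.6, 30.9 and 104, and Ptprc, which encodes CD45, had 4, 6 and 0 against 0, 17.7 and 94. Hmox1, which encodes HO-1, had 3, 0 and 11 counts with vehicle against 148, 316 and 293 with KCL-HO-1i. The animal codes in the labels also separate the groups, so that a batch of animals and the treatment cannot be told apart. In such bulk libraries fewer cells of a type and less RNA per cell cannot be told apart either.

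Detection of the members differed between libraries. At 3 or more counts, vehicle replicates 1, 2 and 3 held 9, 4 and 9 of the 10 members and the KCL-HO-1i replicates held 8, 10 and 10. At 10 or more counts the numbers were 4, 0 and 5 with vehicle against 7, 9 and 8 with KCL-HO-1i. Vehicle replicate 2 was the library with the fewest members at every count minimum, and the groups overlapped at 3 counts but not at 10. Of all 21841 genes, 15101, 14013 and 17311 had at least 1 count with vehicle, against 7584, 15141 and 10773 with KCL-HO-1i. The share of all genes at 3 and at 10 counts was not taken. A count of 3 corresponded to 10.2 to 16.8 CPM (counts scaled to library size with TMM factors) across the 6 libraries, and lower levels could not be told from 0. The 10 members together took 0.0561%, 0.0125% and 0.0290% of the counts with vehicle, against 0.202%, 0.173% and 0.130% with KCL-HO-1i.

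The feedback regulators are described first. Nfkbia, which encodes the IκB that retains NF-κB in the cytoplasm, had 39, 3 and 10 counts in vehicle replicates 1, 2 and 3, against 134, 254 and 289 in the KCL-HO-1i replicates. The groups did not overlap, and vehicle replicate 1 stood above the other vehicle libraries. Its level was 89.2 ± 112 CPM with vehicle and 890 ± 236 CPM with KCL-HO-1i (mean ± SD, n = 3 each), 9.98-fold higher. The exact Poisson interval (95%, counting error only) around the lowest count, 3, ran from 0.619 to 8.77, and around the highest, 289, from 257 to 324. The log2 fold change was 3.32 (standard error, SE, 1.04) with an unadjusted p of 0.00832 by the quasi-likelihood test of edgeR, and an adjusted p of 0.322 (Benjamini-Hochberg). Nfkbia lies at chr12:55489410-55492647 on the minus strand (GRCm38, as for all locations here).

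Nfkbiz encodes the nuclear IκBζ, a coactivator of secondary NF-κB targets such as Il6. It had 14, 0 and 8 counts with vehicle against 117, 63 and 55 with KCL-HO-1i, without overlap. Its level was 35.2 ± 39.7 CPM with vehicle and 329 ± 184 CPM with KCL-HO-1i, 9.36-fold higher, and KCL-HO-1i replicate 1 was the highest. In the same edgeR fit the log2 fold change reached 3.22 (SE 1.17, adjusted p = 0.442). Nfkbiz lies at chr16:55811375-55838899 on the minus strand.

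Tnfaip3 encodes A20, a ubiquitin-editing enzyme that ends signalling upstream of the IKK complex. It had 0, 0 and 13.9 estimated counts with vehicle against 58.7, 33.4 and 92 with KCL-HO-1i. All of the vehicle signal therefore came from replicate 3, and the groups did not overlap. Its level was 15.9 ± 27.6 CPM with vehicle and 245 ± 102 CPM with KCL-HO-1i. The log2 fold change was 3.79 (SE 1.36, edgeR adjusted p = 0.439). Leaving out vehicle replicate 3 gave 8.87, a value that depends on the prior count since the remaining vehicle libraries hold none. Tnfaip3 was the only member with values that were not whole numbers, in 3 of 6 libraries, as estimated counts can be. It lies at chr10:19000910-19015657 on the minus strand.

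Among the cytokines, Il10, which encodes a cytokine that restrains macrophage activation, had 8, 2 and 2 counts with vehicle against 23, 66 and 79 with KCL-HO-1i. The groups did not overlap, although 2 vehicle libraries lay below the floor of 3 counts. Its level was 20.6 ± 20.9 CPM with vehicle and 218 ± 97.3 CPM with KCL-HO-1i, 10.6-fold higher. The log2 fold change was 3.41 (SE 1.08) with an unadjusted p of 0.00884 and an adjusted p of 0.328 in edgeR. Il10 lies at chr1:131019845-131024974 on the plus strand.

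Il6, which encodes the pleiotropic cytokine IL-6, had 4, 8 and 5 counts with vehicle against 26, 27 and 14 with KCL-HO-1i. The groups did not overlap, but the gene did not pass the filter on low counts. Its level was 26.9 ± 12.8 CPM with vehicle and 92.6 ± 37.2 CPM with KCL-HO-1i, 3.44-fold higher, with p = 0.1 in a two-sided exact permutation test, the smallest p that 3 against 3 allows. In edgeR without the filter the log2 fold change was 1.96 (SE 1.45, adjusted p = 0.767). Il6 lies at chr5:30013114-30019981 on the plus strand.

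The interleukin-1 genes showed no separation of the groups in CPM. Il1b, which encodes the IL-1β precursor, had 14, 1 and 8 counts with vehicle against 31, 30 and 20 with KCL-HO-1i. The counts did not overlap but the CPM did, at 78.3, 5.17 and 27.3 against 143, 120 and 71.8, where vehicle replicate 1 lay above KCL-HO-1i replicate 3. Its log2 fold change was 1.59 (SE 1.15, edgeR adjusted p = 0.860). Il1a, which encodes the cell-associated IL-1α, had 8, 0 and 15 counts with vehicle against 0, 20 and 18 with KCL-HO-1i, so that each group held a library at 0. Its log2 fold change was 0.58 (SE 1.67, edgeR adjusted p = 0.958).

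Il1rn, which encodes the antagonist of the IL-1 receptor, had levels of 117, 36.2 and 51.2 CPM with vehicle against 36.9, 124 and 427 with the inhibitor. KCL-HO-1i replicate 1 lay within the vehicle range, and replicate 3 was the highest of the 6 libraries. The log2 fold change was 1.52 (SE 1.04, edgeR adjusted p = 0.832), and it was 0.47 without KCL-HO-1i replicate 3. The 3 genes lie on chromosome 2, Il1b at chr2:129364570-129371139 and Il1a at chr2:129299610-129309972 on the minus strand and Il1rn at chr2:24336853-24351494 on the plus strand. Il1b overlaps Il1bos and Il1a overlaps Gm14023 on the opposite strand. The library kit keeps strand, but whether the quantification used it was not given in the sources used here.

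Tnf and Ptgs2 were close to the floor in most libraries and did not pass the filter. Tnf, which encodes the cytokine TNF, had 5, 0 and 7 counts with vehicle against 0, 19 and 8 with KCL-HO-1i, and an exact Poisson interval around a count of 0 reaches 3.69. The groups overlapped, and the exact permutation test of its CPM gave p = 0.5. Ptgs2, which encodes the inducible cyclooxygenase COX-2, had 3, 6 and 14 counts with vehicle against 21, 9 and 4 with KCL-HO-1i. The groups overlapped here too (exact permutation p = 0.7), and no difference in either gene was detectable at this depth. Tnf lies at chr17:35199381-35202007 on the minus strand and Ptgs2 at chr1:150100031-150108227 on the plus strand.

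**Figure D1:**
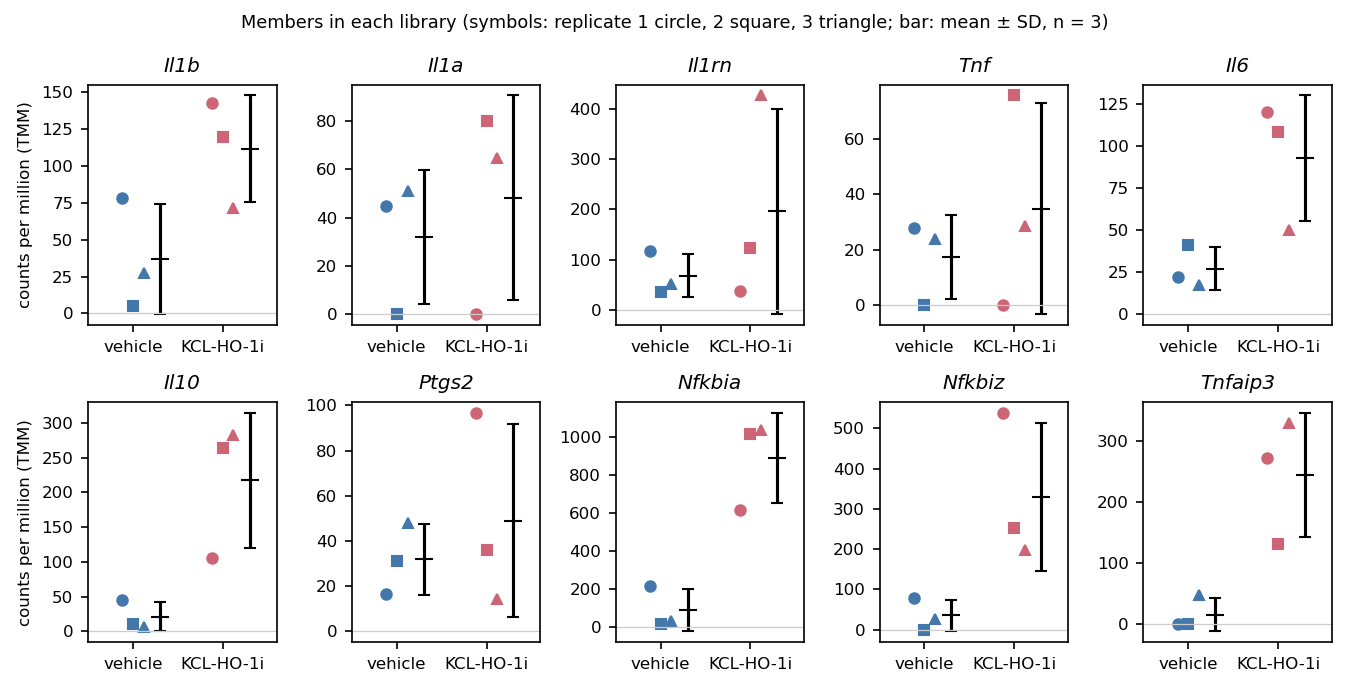
CPM (TMM, linear axis) of each of the 10 members in the 3 vehicle and 3 KCL-HO-1i libraries. Points are single mice with a symbol for each replicate number, and the bar beside them is the mean ± SD (n = 3). Il6, Il10, Nfkbia, Nfkbiz and Tnfaip3 have every KCL-HO-1i point above every vehicle point, and the other 5 members overlap.

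Across the members, 7 of 10 passed the filter and none was called by edgeR at an adjusted p under 0.05 and an absolute log2 fold change above 0.6, where 0% of the 7263 genes tested were called. At an unadjusted p under 0.05, 4 members were higher with KCL-HO-1i (Il10, Nfkbia, Nfkbiz and Tnfaip3) and 0 lower, where 5.01% of all genes tested were higher. With few counts in vehicle, these 4 passed the filter only through the KCL-HO-1i libraries, so a lower value was hardly possible for them. With no filter on low counts all 10 members had a value, the same 4 had an unadjusted p under 0.05, and 3.88% of the 19518 genes were higher at that threshold. In CPM, 5 members were higher without overlap, where 3.89% of genes with a count were. The log2 fold changes of all 10 members in that fit had a median of 1.86, and those of all genes a median of -0.52.

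The calls depended on the tool, on the filter on low counts and on vehicle replicate 1. DESeq2 on the filtered genes called Il10 (adjusted p = 0.0342) and Nfkbia (adjusted p = 0.0244), where 2.26% of genes tested were called higher. Limma voom with quality weights called these and Nfkbiz (adjusted p of 0.0226 for Il10, 0.00563 for Nfkbia and 0.0482 for Nfkbiz), where 4.03% were called higher. Both fits used the filter that the called members passed only through the KCL-HO-1i libraries. DESeq2 without a filter called none of the 10, where 0.564% were called higher. Of the 6 edgeR fits that each left out 1 library, only that without vehicle replicate 1, the vehicle library with most of its Nfkbia counts, called any gene. It called Nfkbia (log2 fold change 5.38, adjusted p = 0.0369), where 0.731% of genes tested were called higher. In the other 5 fits the adjusted p of Nfkbia ran from 0.193 to 0.866.

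**Figure D2:**
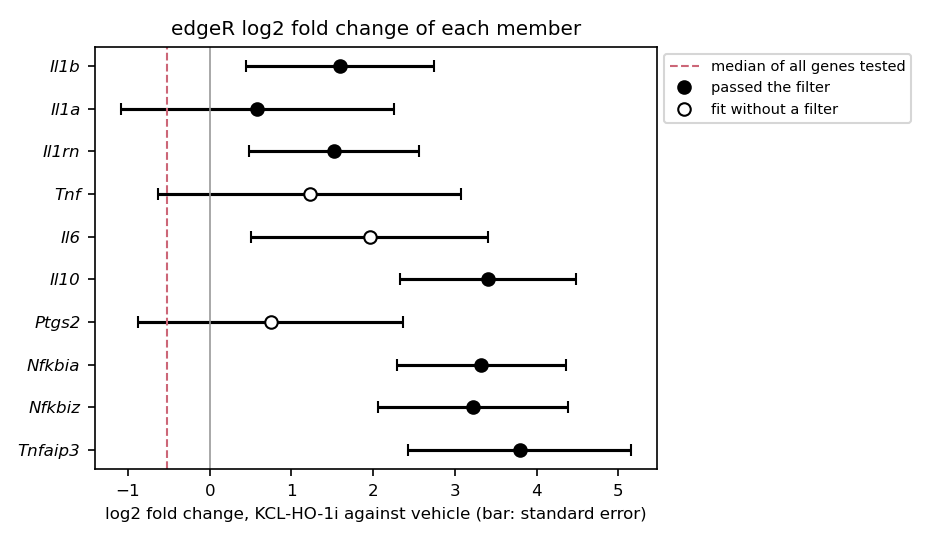
Log2 fold change, KCL-HO-1i against vehicle, of each member with its standard error, from edgeR. Filled points are members that passed the filter on low counts and open points come from the fit without it. The dashed line is the median of all genes tested, -0.52. All 10 points lie above 0, from 0.58 for Il1a to 3.79 for Tnfaip3.

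Levels were compared between members per kb of the longest annotated transcript. With KCL-HO-1i the order of the mean level (CPM of the library total, per kb) was led by Nfkbia (418 ± 81.0), followed by Il10 (118 ± 36.9), Nfkbiz (69.9 ± 59.1), Il1b (68.9 ± 41.2) and Il1rn (46.7 ± 36.8). Il6, Tnfaip3, Il1a, Tnf and Ptgs2 lay between 33.5 and 10.2. Only the step from Nfkbia to Il10 exceeded the larger SD of the neighbours. With vehicle Nfkbia again had the highest mean (49.0 ± 61.3) and Tnfaip3 the lowest (2.22 ± 3.84), and the step from Ptgs2 (6.27 ± 3.02) to Tnfaip3 was the only one that exceeded the larger SD.

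To set these levels against a background, the counts per kb of 1471 olfactory and vomeronasal receptor genes, which macrophages are not known for, were taken in the same libraries. These receptor genes took 5.97% to 6.38% of the counts with vehicle and 2.19% to 4.13% with KCL-HO-1i. The median of the receptor genes was 1.99, 1.61 and 3.91 counts per kb with vehicle, against 0, 1.31 and 0.24 with KCL-HO-1i. The number of members above the 95th percentile of the receptor genes was 3, 0 and 0 with vehicle, against 6, 8 and 6 with the inhibitor. The share of all genes above that percentile was not taken, so these numbers are not a result particular to the members. Il1b, Il10, Nfkbia and Nfkbiz were above it in 3 of 3 KCL-HO-1i libraries, and Ptgs2 in none of the 6. With the union of exons as the length the numbers were 1, 0 and 0 against 5, 7 and 6. In vehicle replicate 1 the members above it were Il1b, Il1rn and Nfkbia, and in the other vehicle libraries every member lay within the range of receptor genes below it.

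**Figure D3:**
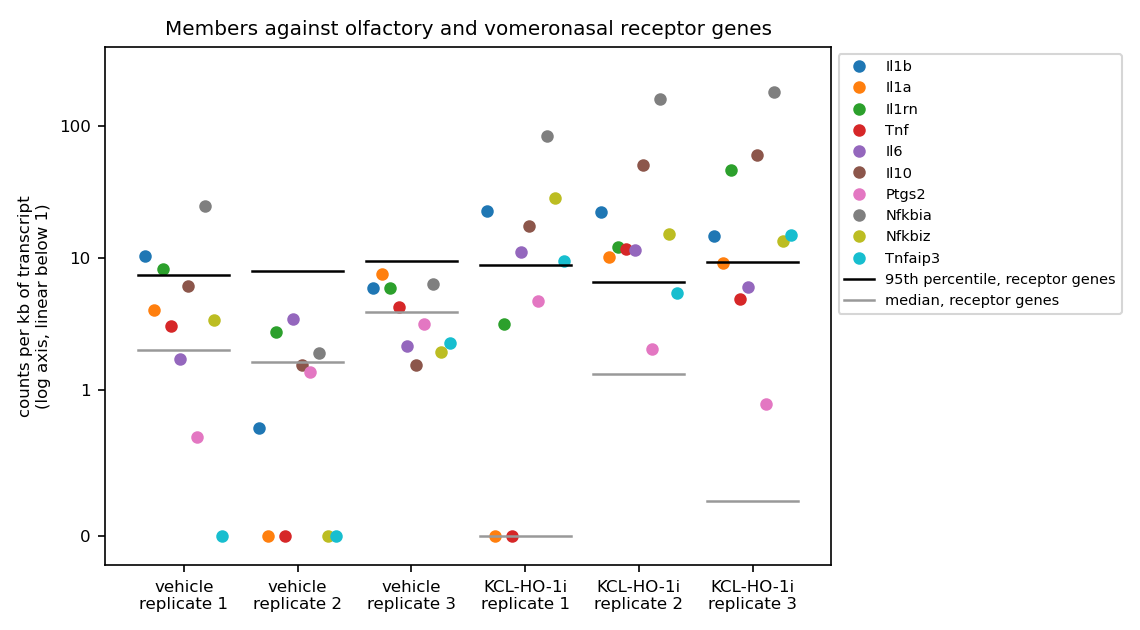
Counts per kb of the longest transcript of each member in each library, on a log axis that is linear below 1. The black line is the 95th percentile and the grey line the median of 1471 olfactory and vomeronasal receptor genes in that library. With vehicle 3, 0 and 0 members lie above the black line, and with KCL-HO-1i 6, 8 and 6. The share of all genes above it was not taken.

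Ratios within a library do not depend on how libraries are scaled. The summed counts of Nfkbia, Nfkbiz and Tnfaip3 over those of the other 7 members were 0.841, 0.125 and 0.484 with vehicle against 2.84, 1.74 and 1.66 with KCL-HO-1i. The groups did not overlap, and the ratio is given as a description without a test. In vehicle replicates 2 and 3 every member lay within the range of the receptor genes, so the ratio there rests on counts at background level. Vehicle replicate 2 held 3 counts of the feedback regulators against 24 of the others. How often other sets of genes would separate in this way was not counted. Per 1000 counts of the general macrophage genes, Nfkbia stood at 142, 34.5 and 82.5 with vehicle against 141, 135 and 156 with KCL-HO-1i, and the groups overlapped. Il10 stood at 29.1, 23.0 and 16.5 against 24.2, 34.9 and 42.7, also with overlap. Il1rn was the only member without overlap on this scale, at 76.4, 80.5 and 124 with vehicle against 8.42, 16.4 and 64.3 with KCL-HO-1i, lower with the inhibitor. The general macrophage genes summed to only 86.96 to 274.7 counts per library with vehicle, against 950 to 1889 with KCL-HO-1i. Vehicle replicate 2, with the lowest sum, held 7 counts of Il1rn, 3 of Nfkbia and 2 of Il10. Lyz2 alone gave 115, 9 and 33 of the summed counts with vehicle against 330, 814 and 781 with KCL-HO-1i. The vehicle values on this scale are therefore imprecise. A fall on this scale was not particular to Il1rn. With libraries scaled in this way, edgeR called 4885 of 7263 genes lower and 11 higher. How many of all genes separated without overlap on it was not counted.

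With libraries scaled to the macrophage genes in edgeR, the log2 fold changes were 0.71 for Nfkbia, 0.55 for Il10, 0.63 for Nfkbiz and 0.17 for Tnfaip3. Those of Il1b, Il1a and Il1rn turned to -1.14, -2.87 and -1.64, and the median of all genes moved to -3.94. The part of the macrophage gene share in the members' differences was not tested.

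**Figure D4:**
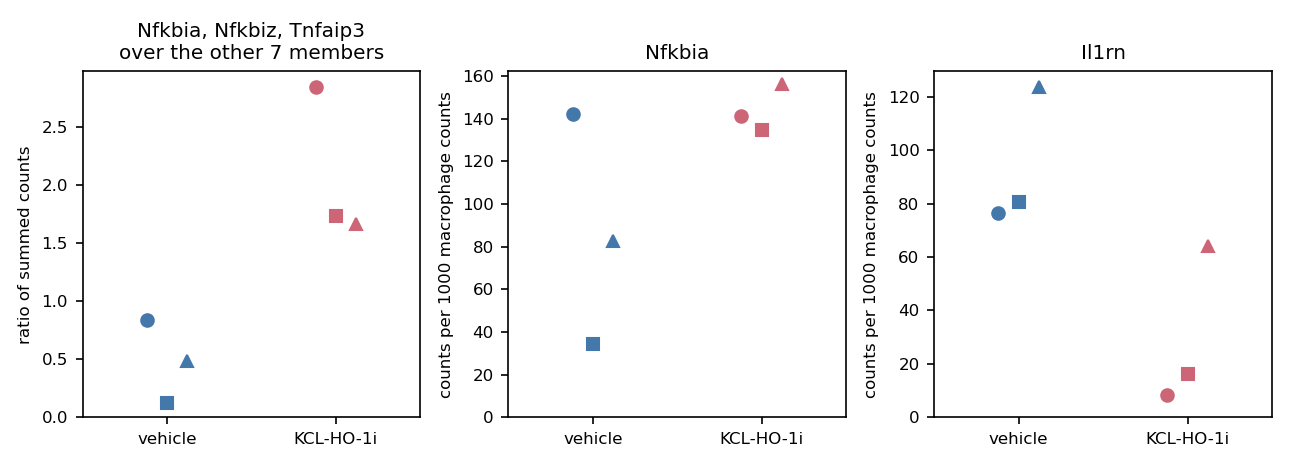
Ratio of the summed counts of Nfkbia, Nfkbiz and Tnfaip3 to those of the other 7 members (left), and counts of Nfkbia (middle) and Il1rn (right) per 1000 counts of 15 general macrophage genes, in each library. Circle, square and triangle are replicates 1, 2 and 3. The ratio is 0.125 to 0.841 with vehicle and 1.66 to 2.84 with KCL-HO-1i, and Nfkbia overlaps between the groups. Il1rn lies lower with KCL-HO-1i, as most genes tested do on that scale.

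Nfkbia, the member with the largest total count, was compared with all other filtered genes by the root mean squared difference of centred log2 CPM over the 6 libraries. The closest of 7262 genes were Lyz2 (0.157), Ms4a6d (0.207), Atp5l (0.245), Itm2b (0.251) and Rps27a (0.252). Lyz2, which encodes lysozyme and is one of the general macrophage genes, had 115, 9 and 33 counts with vehicle against 330, 814 and 781 with KCL-HO-1i. Among the members, Il10 ranked 98th, Nfkbiz 161st and Il1b 347th in likeness to Nfkbia, with Tnfaip3, Il1rn and Il1a further away.

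The rest of the pathway was read from 11 lists of 106 genes, of which 54 passed the filter. At an unadjusted p under 0.05, 9 were higher with KCL-HO-1i and 0 lower, where 5.01% of all genes tested were higher, and edgeR called 0. Those with a value in the fit without a filter had a median log2 fold change of 0.19, and all genes in that fit one of -0.52. Among the receptors and adaptors that feed NF-κB, 2 of 14 tested were higher at that threshold. Ly96, which encodes the MD-2 partner of TLR4, had 3, 2 and 0 counts with vehicle against 54, 12.9 and 154 with KCL-HO-1i (edgeR adjusted p = 0.296). Cd14, the LPS co-receptor, stood at a log2 fold change of 3.05 (SE 1.36, edgeR adjusted p = 0.604). Tlr4 itself ran the other way, at 29, 32 and 33 counts against 0, 19 and 9 (log2 fold change -2.00, SE 1.23, edgeR adjusted p = 0.801). Of the 14 tested, 5 had a log2 fold change above 0, and the median was -0.40.

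The genes of the mRNA decay list, whose proteins act on the stability of cytokine transcripts, had 3 of 6 tested higher at an unadjusted p under 0.05, where 5.01% of all genes tested were. Zfp36, which encodes tristetraprolin, had 6, 2 and 21 counts with vehicle against 91, 202 and 402 with KCL-HO-1i (log2 fold change 4.49, standard error 0.99, edgeR adjusted p = 0.231). Its paralog Zfp36l1 had a log2 fold change of 3.14 (edgeR adjusted p = 0.298). Of the 6 tested, 4 had a log2 fold change above 0. Rc3h1 ran the other way, at 37, 27 and 20 counts against 5, 16 and 12.4 (log2 fold change -1.65, edgeR adjusted p = 0.790). The counts of Zfp36 did not overlap between the groups, as for Nfkbia.

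The subunits and kinases of the pathway were thinly covered. Of 5 NF-κB subunits 2 were tested and 0 had an unadjusted p under 0.05, with log2 fold changes of 1.80 for Rela and 0.26 for Rel. Of the IKK complex only Ikbkg was tested, with 0.08, and of the 5 other IκB genes none passed the filter. Among the ubiquitin-editing partners of A20, 0 of 5 tested had an unadjusted p under 0.05, with log2 fold changes from -2.37 for the deubiquitinase Cyld to 2.26 for the A20-binding adaptor Tax1bp1.

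The genes downstream of the members were read at an unadjusted p under 0.05, where 5.01% of all genes tested were higher. In IL-6 and IL-10 signalling 1 of 7 tested was higher, the kinase Jak1 (6, 1 and 7 counts against 8, 69 and 107). Socs1, a feedback inhibitor of cytokine receptors, had a log2 fold change of -1.82. Of the prostaglandin genes 1 of 5 was higher, Ptges3 (6, 12 and 10 against 122, 57 and 93), while Ptges, the inducible prostaglandin E synthase that works with COX-2, stood at -1.68. Of the inflammasome and IL-18 genes 0 of 4 tested had an unadjusted p under 0.05, with log2 fold changes of 0.78 for the inflammasome adaptor Pycard and -1.01 for Il18bp, which encodes the IL-18 binding protein. Rhbdf2, a partner of the protease that sheds TNF, was the only one of 3 shedding genes tested, at 0.98. Of the other NF-κB targets 2 of 9 were higher, Marcks (1.99) and Ier3 (2.92). Of these genes, edgeR called 0.

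Markers of other cells and of tissue handling were set beside these values. Neutrophil genes took 0.0146% to 0.0256% of the counts with vehicle and 0.0111% to 0.0188% with KCL-HO-1i, with 1 of 10 passing the filter. Monocyte genes took 0.0246% to 0.0448% against 0.0125% to 0.0366%. Tumor epithelial genes took 0.00974% to 0.0522% with vehicle and 0.0669% to 0.250% with KCL-HO-1i, without overlap. The milk protein genes Wfdc18 (45, 0 and 8 counts against 235, 104 and 387) and Csn3 (39, 1 and 18 against 244, 79 and 176) were the 2 of 8 that were tested, and both were higher at an unadjusted p under 0.05. Cdh1, which encodes E-cadherin, ran the other way at 5, 12 and 13 counts against 0, 3 and 0. The rest of the list, Epcam, Krt8, Krt18, Krt14 and Krt19, overlapped between the groups in CPM. Fibroblast genes took 0.0269% to 0.0307% against 0.00722% to 0.0108%. Of 10 neutrophil, 6 monocyte, 8 fibroblast, 7 endothelial, 7 dendritic and 8 lymphocyte genes, 1, 2, 2, 1, 2 and 1 were tested. None of those tested had an unadjusted p under 0.05. Most genes of these lists failed the filter, so a change in these cell types was hardly tested. Immediate early genes, which can respond to tissue digestion, took 0.0699% to 0.191% with vehicle and 0.444% to 0.664% with KCL-HO-1i. Of these genes, 5 of 13 tested were higher at an unadjusted p under 0.05, where 5.01% of all genes tested were. Fos, one of them, had 41, 6 and 7 counts against 435, 146 and 818. The part of these genes in the members' differences was not tested.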

How the data were processed

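RNAseq counts of LYVE-1+ TAMs were analysed in 3 vehicle and 3 KCL-HO-1i libraries, each from 1 mouse. The submitters' processing notes name FastQC 0.11.9, STAR 2.7.9a, Salmon 1.9.0, DESeq2 and mm10. The authors deposited 1 table of estimated counts per gene, which the methods call TPM counts, but the totals differ between libraries, and the values were therefore treated as estimated counts and rounded to whole numbers. The annotation used was not given in the sources used here. All columns belonged to the 6 libraries, and libraries of 1 group were not copies of each other (their counts differed beyond counting noise).

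Genes were compared with edgeR 4.0.16 (R 4.3.3; TMM, filterByExpr with a minimum count of 10 and total of 15, quasi-likelihood test, Benjamini-Hochberg over 7263 genes), called at an adjusted p under 0.05 and an absolute log2 fold change above 0.6. DESeq2 1.42.0 and limma 3.58.1 were alternatives. Members that failed the filter were taken from the fit without it. CPM of single genes were compared by two-sided exact permutation tests. Locations and lengths came from GENCODE M21 (GRCm38), which matched 21613 of 21841 symbols. The genes named beside the members were the sorting markers, Hmox1, up to 2 genes per pathway list with the smallest unadjusted p, and the 5 genes closest to Nfkbia. Cd68, Tlr4, Rc3h1, Fos and the named genes of the tumor epithelial list were named after their values were seen. The members and lists were chosen with earlier results of these data known. P-values measure the spread between mice, and counting intervals cover counting error only.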

Additional observations from a re-analysis of the deposited data

How the results depend on the processing

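EdgeR called 0 genes, with a smallest adjusted p of 0.205, and 586 genes (364 higher, 222 lower) had an unadjusted p under 0.05 with the fold change cutoff. It also called 0 with RLE, with library totals, with thinned counts, without mitochondrial genes and with no fold change cutoff. The count was 176 in DESeq2 without a filter (110 higher, 66 lower), 236 in DESeq2 on filtered genes, 299 in limma voom, 82 in edgeR with no filter, 67 with at least 10 counts in every sample and 4896 with libraries scaled to the macrophage genes (11 higher, 4885 lower). DESeq2 restricted to genes with at least 1 count, a setting chosen after seeing the data, called 184. DESeq2 without a filter and DESeq2 on genes with at least 1 count both called 0 of the 10 members. DESeq2 on filtered genes called Il10 and Nfkbia. Leaving out 1 library gave 0 to 74 calls, and the 74 (72 higher, 2 lower) came without vehicle replicate 1. The cause of these shifts was not tested.

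The replicate block called 0 genes, as did the fit without it. The deviations of same-numbered libraries had correlations of -0.00263, 0.055 and -0.0326, and the numbers were not taken to pair mice.

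Scaling to the macrophage genes turned the log2 fold changes of Il1b (-1.14), Il1a (-2.87) and Il1rn (-1.64), and every other alternative that gave a value kept each member above 0. At 10 counts in place of 3, the mean number of members detected was 3 with vehicle and 8 with KCL-HO-1i. Levels under 3 counts in a library could not be told from 0 at these depths.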
